A study of Mus musculus with 11 samples.

Results

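The miR-26 and miR-103/miR-107 miRNAs are excised from introns of 2 small families of protein-coding genes, and their mature forms were followed here in spermatogonial progenitor cells (SPCs) with and without knockdown of Mov10. A miRNA was included when its name carried the stem miR-26a, miR-26b, miR-103 or miR-107, whatever its arm. This gave 10 of the 1096 mature miRNAs in the tables, 5 of the miR-26 family and 5 of the miR-103/miR-107 family. SPCs are Thy1-positive germ cells of mouse pups that were kept on mitotically inactivated STO feeder cells, a fibroblast line, and the labels place them at postnatal day 6 and name the strain as C57BL/6. The methods name the donor strain as B6;129S-Gt(Rosa) 26Sor/J, with an age of up to 8 days. Both groups received lentivirus, which carried the empty vector in control cells (shVector) and an shRNA against the RNA helicase gene Mov10 in knockdown cells (shMov10-832). Each group is represented by 1 small RNA library, so no value below has an error between cultures. All intervals are 95% intervals of the counting error, and all p-values compare the 2 libraries and not the 2 conditions.

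The miR-26 hairpins lie in genes of the Ctdsp family, whose products are small phosphatases of the C-terminal domain of RNA polymerase II. The miR-103/miR-107 hairpins lie in genes of the Pank family, which encode pantothenate kinases, the enzymes that open coenzyme A synthesis. The hairpin of such a miRNA is cut out of the host transcript by Drosha and trimmed by Dicer to a duplex. One arm of the duplex is loaded into Argonaute as the guide, whereas the other is mostly degraded, and targets are found mainly through the seed at the 5′ end of the guide. miR-26 is known to repress Ezh2 and to limit cell proliferation, and miR-103/miR-107 is known to repress Dicer itself. MOV10 is known to associate with Argonaute proteins.

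The mature sequences below are those of RefSeq on GRCm38, written 5′ to 3′ with the seed (bases 2 to 8) in capitals, and they are shown because seed and arm define which members can act alike and which reads can be told apart.
miR-26a-5p: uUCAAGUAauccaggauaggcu
miR-26b-5p: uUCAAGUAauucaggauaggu
miR-26a-1-3p: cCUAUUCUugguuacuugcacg
miR-26a-2-3p: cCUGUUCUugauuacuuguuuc
miR-26b-3p: cCUGUUCUccauuacuuggcuc
miR-103-3p: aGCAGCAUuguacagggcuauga
miR-107-3p: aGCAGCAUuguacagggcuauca
miR-103-1-5p: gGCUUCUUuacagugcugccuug
miR-103-2-5p: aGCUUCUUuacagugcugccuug
miR-107-5p: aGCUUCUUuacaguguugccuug

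All 10 members had a RefSeq sequence. The guide of the miR-26 family is the 5p arm, and that of the miR-103/miR-107 family is the 3p arm. Among the 908 miRNAs of the tables with a RefSeq mature sequence, the seed of miR-26a-5p was found in 2, miR-26a-5p and miR-26b-5p, and the seed of miR-103-3p in 2, miR-103-3p and miR-107-3p. With positions counted from 1 at the 5′ end, miR-26a-5p and miR-26b-5p differ by C11U and C21U, and miR-26a-5p is 22 nt long against 21 nt for miR-26b-5p. miR-103-3p and miR-107-3p are both 23 nt long and differ by G22C alone. They share their leading 21 bases, so a read trimmed within this stretch matches both, and how the authors assigned such reads is not stated in the sources used here. Mature miR-26a-5p is identical in its 2 hairpins, as is miR-103-3p, and the rarer arms are what distinguish these loci. The rarer arms of miR-26a differ by A4G, G11A, C19U, A20U, C21U and G22C from miR-26a-1-3p to miR-26a-2-3p. The seed of miR-26a-2-3p is shared with miR-26b-3p and not with miR-26a-1-3p, because A4G falls within it. On the 5p side, miR-103-1-5p and miR-103-2-5p differ by G1A.

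Every hairpin lay on the strand of its host gene (GENCODE vM21 on GRCm38). Mir26b lies at chr1:74394310-74394394 in intron 4 of 6 of Ctdsp1 (transcript Ctdsp1-201). Mir26a-2 lies at chr10:126995530-126995613 in intron 5 of 7 of Ctdsp2 (Ctdsp2-202), and Mir26a-1 at chr9:119031796-119031885 in intron 5 of 7 of Ctdspl (Ctdspl-201). The 3 Pank hairpins were all found in intron 5 of 6, with Mir107 at chr19:34820687-34820773 on the minus strand in Pank1 (Pank1-202), Mir103-2 at chr2:131288052-131288137 in Pank2 (Pank2-204) and Mir103-1 at chr11:35782396-35782481 in Pank3 (Pank3-201). Their introns measured 7282, 5801 and 1740 bp, and the hairpins began 326, 454 and 688 bp after the upstream exon. The Ctdsp introns were 564 bp long in Ctdsp1, 1946 bp in Ctdsp2 and 3283 bp in Ctdspl. In these, 234, 1621 and 1543 bp separated the upstream exon from the hairpin. Mir26a-2 differed from the others in its annotation, since 2 shorter Ctdsp2 transcripts, Ctdsp2-201 and Ctdsp2-203, start at position 126995613, the last base of the hairpin. None of the other 5 hairpins overlapped an exon of a host transcript. The GC content ran from 53.6 to 60.0% in the Ctdsp hairpins and from 45.3 to 47.7% in the Pank hairpins.

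**Figure D1:**
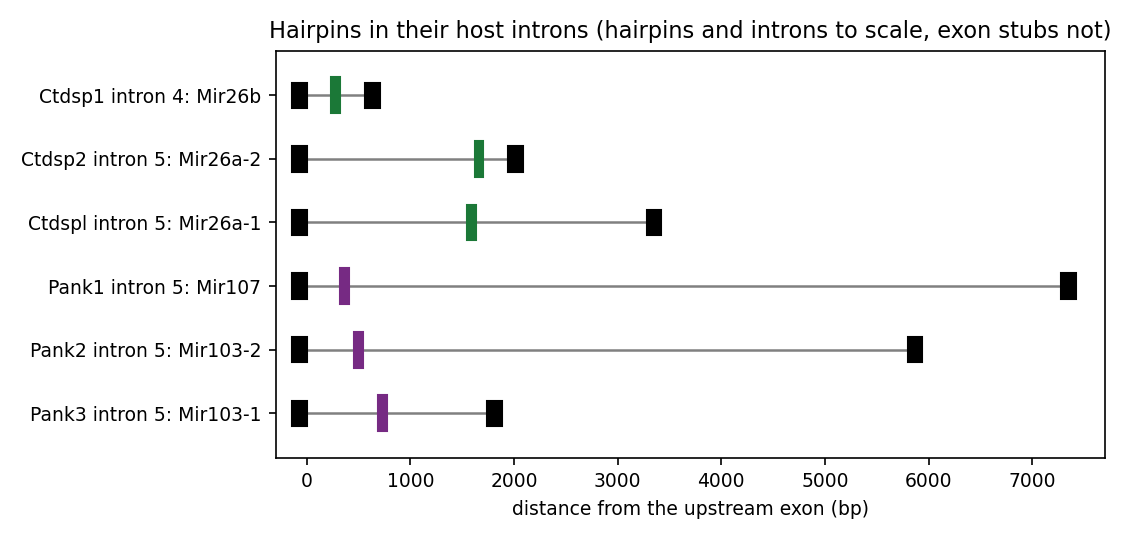
Position of each hairpin (coloured box) in its host intron (grey line), as the distance in bp from the end of the upstream exon; black boxes mark the flanking exons and are not to scale. The Ctdsp1 intron is the shortest at 564 bp and the Pank1 intron the longest at 7282 bp, and Mir107 and Mir103-2 lie near the upstream end of their introns.

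The control library had 9628835 reads on miRNAs and the knockdown library 2794593, a ratio of 0.290. TPM in these tables is the number of reads per 1000000 reads of a total set by the authors for each library, 10518277 and 3194363 reads, without a length correction, and members are 21 to 23 nt long. A read was thus worth 0.0951 TPM in the control and 0.313 TPM in the knockdown, and 3 reads, used as the detection limit, 0.285 and 0.939 TPM. Of the lists of cell type markers, the 12 germ and stem cell culture miRNAs of the miR-290 to miR-295 cluster summed to 2106 TPM in the control and 1299 TPM in the knockdown. Of these 12, 9 were lower by the exact binomial test described below. The 10 fibroblast miRNAs (miR-143, miR-145a, miR-199 and miR-214) summed to 27675 and 32318 TPM, with 6 higher and 1 lower. The 6 listed of 7 blood miRNAs summed to 176 and 35.1 TPM, with 2 lower. Over all miRNAs, the same test called 21.4% lower and 10.7% higher. No listed marker was at 0 in both libraries. The part of other cells in the values of miR-26 and miR-103/miR-107 was not tested. Fewer cells of a type and less RNA per cell cannot be told apart in such libraries.

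The guide strands of the 2 host families were abundant in SPCs. miR-26a-5p led with 236843 reads in control and 48197 in knockdown SPCs, which is 22517 and 15088 TPM, and ranked 11 of 1096 miRNAs in control and 14 in knockdown SPCs. miR-26b-5p had 44539 and 11375 reads, or 4234 and 3561 TPM. Next in order came miR-103-3p with 26232 and 7275 reads, or 2494 and 2277 TPM, at ranks 48 and 50. miR-107-3p, the guide from Pank1, was about an order of magnitude below miR-103-3p, with 2515 and 715 reads, or 239 and 224 TPM. The order of these guides was the same in both libraries, and no counting intervals of neighbours overlapped. Levels of different miRNAs can also differ through unequal ligation in library preparation, which these files do not measure.

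The opposite arms were rare. miR-26b-3p had 494 reads in control and 159 in knockdown SPCs, or 47.0 and 49.8 TPM, and miR-26a-2-3p had 72 and 38 reads, or 6.85 and 11.9 TPM. The other 4 members stayed below 1.5 TPM in both libraries. miR-26a-1-3p, the rarer arm from Ctdspl, had 11 reads in the control (1.05 TPM, exact Poisson interval 0.522 to 1.87) and 0 in the knockdown, where 3 reads are 0.939 TPM and the exact Poisson upper limit is 1.15 TPM, above the control value. miR-103-2-5p had 13 and 3 reads, miR-107-5p had 5 reads in control and 1 in knockdown SPCs, and miR-103-1-5p had 2 and 0. These last 4 could not be put in order, since their intervals overlapped in both libraries.

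**Figure D2:**
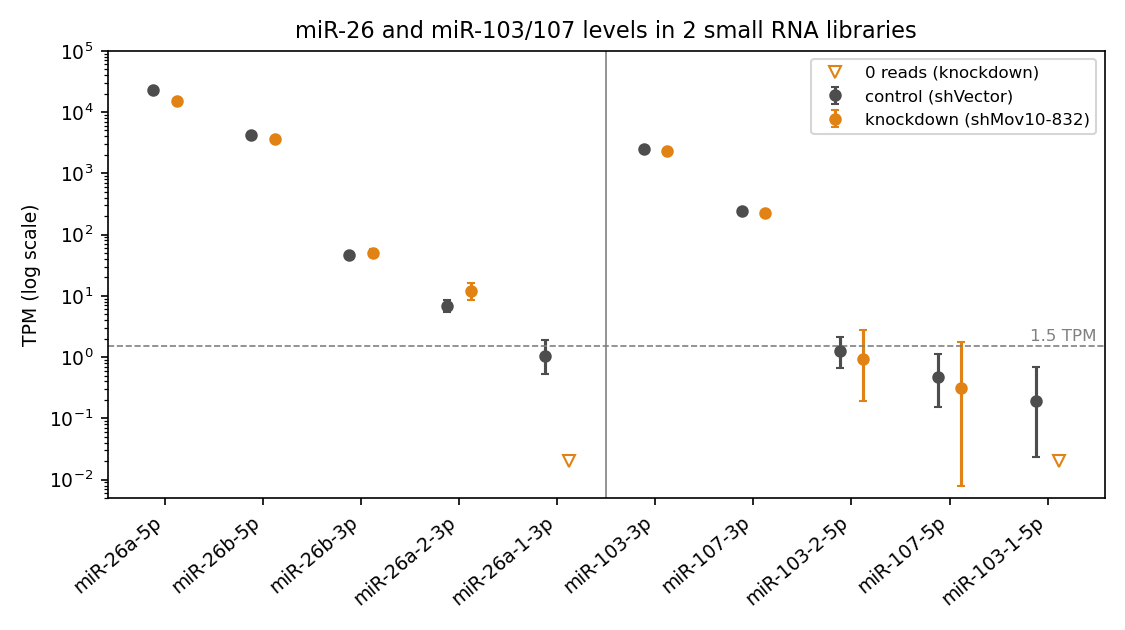
TPM on a log scale of the 10 members in the control and knockdown libraries, 1 library each, with exact 95% Poisson intervals of the counts; open triangles mark 0 reads and are drawn at an arbitrary low value, and the dashed line is 1.5 TPM. miR-26a-5p is the highest in both libraries (22517 and 15088 TPM), and 4 members lie below the dashed line.

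Each family was thus dominated by its guides. miR-26a-5p contributed 84.0% of the miR-26 reads in control and 80.6% in knockdown SPCs, and miR-26b-5p 15.8 and 19.0%. In the other family, miR-103-3p contributed 91.2% in control and 91.0% in knockdown SPCs, and miR-107-3p 8.74 and 8.94%. Together the miR-26 members took up 2.93% of all miRNA reads in the control (Wilson interval 2.92 to 2.94%) and 2.14% in the knockdown (2.12 to 2.16%). The miR-103/miR-107 members took up 0.299% (0.295 to 0.302%) and 0.286% (0.280 to 0.292%).

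The knockdown was then compared with the control for each member, to ask whether miRNAs from the 2 host families were reduced alike. Fold changes are log2 of the ratio of TPM + 0.1 (knockdown over control), which understates changes of rare members, and intervals come from the reads. miR-26a-5p was lower in the knockdown, with a log2 fold change of -0.58 (interval -0.59 to -0.56). With the deposited TPM this is 1.49-fold, just short of a 1.5-fold threshold. The study applied such a threshold, but its counts of lower and higher miRNAs differ from those obtained here with the deposited TPM. Whether the most abundant member passed in the study cannot be told from these values. The direction was kept at -0.33 with median ratio scaling and -0.36 with TMM scaling. When reads were compared without regard to the library totals, the log2 fold change of this member was -2.30, past 1.5-fold. miR-26b-5p was lower by less, with a log2 fold change of -0.25 (-0.28 to -0.22, adjusted p = 5.4e-62, exact binomial test with Benjamini-Hochberg adjustment over all miRNAs), and this difference vanished with scaling by the median ratio (0.0022) and with TMM scaling (adjusted p = 0.10, binomial test). miR-103-3p was lower by 0.13 on the log2 scale with the deposited TPM (-0.17 to -0.09, adjusted p = 3.0e-11, exact binomial test), but higher by 0.12 after median ratio scaling and by 0.087 after TMM scaling. For miR-107-3p the log2 fold change was -0.10 (-0.22 to 0.03), which did not pass (adjusted p = 0.31, exact binomial test), and under these scalings it was 0.16 (adjusted p = 0.036, binomial test) and 0.12 (adjusted p = 0.13, binomial test).

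Among the rare arms, miR-26a-2-3p, from Ctdsp2, went the other way to its guide. Its log2 fold change was 0.79 (0.19 to 1.38, adjusted p = 0.030, exact binomial test), a rise over 1.5-fold that rests on 72 and 38 reads and that turned to -0.90 when reads were compared without regard to the library totals. miR-26b-3p had a log2 fold change of 0.08 (-0.18 to 0.34, adjusted p = 0.86, exact binomial test), which became 0.34 and passed after median ratio scaling (adjusted p = 0.041, binomial test), and was 0.30 after TMM scaling (adjusted p = 0.070, binomial test). miR-26a-1-3p, with 11 reads against 0, did not pass the test (adjusted p = 0.20, exact binomial test), and the interval of its log2 ratio reached up to 0.39. The 5p arms of miR-103 and miR-107 did not pass it either (adjusted p = 1 for each of the 3, exact binomial test), and with at most 13 reads their intervals were wide, from -2.85 to 1.47 for miR-103-2-5p.

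Counted over the members, 6 of the 10 were above 1.5 TPM in at least 1 library. Of these 6, 0 were lower over 1.5-fold, where 41.5% of the 607 miRNAs above that minimum were, and 1 was higher over 1.5-fold (miR-26a-2-3p), against 15.8%. The exact binomial test called 3 of the 10 members lower (miR-26a-5p, miR-26b-5p and miR-103-3p), where 21.4% of the 1096 miRNAs tested were, and 1 higher, against 10.7%. Over both directions, 4 of the 10 members passed, and 32.1% of all miRNAs did. The median log2 fold change of the 6 members was -0.11, and that of the 607 miRNAs -0.37 with a middle range of -1.03 to 0.32. miR-26a-5p lay within this range, with 41.7% of the 607 below it. For miR-26b-5p this share was 53.2%, for miR-103-3p 58.3% and for miR-107-3p 59.8%. Among the 75 miRNAs above 1000 TPM in the control, 71 passed the binomial test, and their median log2 fold change was -0.25. All 4 guides thus lay within the middle range of the miRNAs above the minimum.

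**Figure D3:**
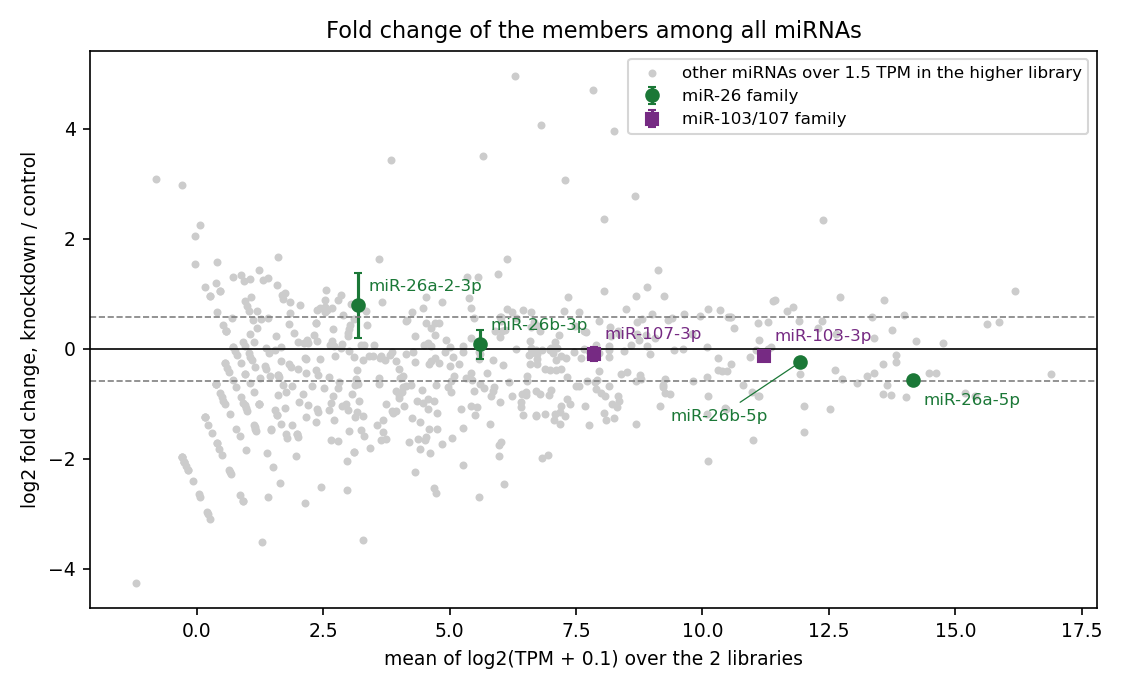
Log2 fold change (knockdown over control, TPM + 0.1) against the mean log2(TPM + 0.1) of the 2 libraries for the miRNAs above 1.5 TPM in the higher library; members are coloured by family with 95% counting intervals, and dashed lines mark 1.5-fold. miR-26a-5p (-0.58) lies just inside the lower line and miR-26a-2-3p (0.79) above the upper one, whereas miR-103-3p and miR-107-3p lie near 0 and change sign under median ratio and TMM scaling.

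The families were next compared within each library, where the library total cancels out. The miR-26 family summed to 281959 reads in control and 59769 in knockdown SPCs, and the miR-103/miR-107 family to 28767 and 7994. In TPM the miR-26 sum went from 26807 to 18711 (log2 fold change -0.52, interval -0.53 to -0.51) and kept its direction under each of the 4 other scalings. The miR-103/miR-107 sum went from 2735 to 2503 TPM (-0.13, -0.16 to -0.09), and this direction turned to 0.12 with median ratio scaling and 0.090 with TMM scaling. The ratio of miR-26 to miR-103/miR-107 reads was 9.80 in control and 7.48 in knockdown SPCs, a log2 change of -0.39 (-0.43 to -0.35, p = 6.4e-87, Fisher's exact test, two-sided, adjusted p = 5.8e-86 over 9 fixed ratios). The Ctdsp-hosted miRNAs were therefore reduced relative to the Pank-hosted ones in this pair of libraries, by an amount beyond counting error. It was smaller without the leading member of each family, since without miR-26a-5p and miR-103-3p the log2 change was -0.15 (-0.27 to -0.02, p = 0.021, Fisher's exact test). With each member above 1.5 TPM weighted equally, the direction turned, as the mean log2 fold change was 0.01 over 4 miR-26 members and -0.11 over 2 miR-103/miR-107 members.

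Paralogs within a family were compared in the same way. Reads of miR-26a-5p exceeded those of miR-26b-5p 5.32 times in the control and 4.24 times in the knockdown, a log2 change of -0.33 (-0.36 to -0.29, adjusted p = 7.4e-82, Fisher's exact test). The guide from Ctdsp2 and Ctdspl was thus reduced relative to the guide from Ctdsp1, which carries the same seed. The ratio of miR-103-3p to miR-107-3p was 10.4 in control and 10.2 in knockdown SPCs, and its log2 change of -0.04 did not pass the test (-0.16 to 0.09, adjusted p = 0.87, Fisher's exact test). Reads trimmed within the shared stretch cannot be told apart between these guides, and their number is not in the tables used here.

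The arms were compared last. For miR-26a, 2854 reads of the 5p arm were counted for each read of the 3p arms in control and 1268 in knockdown SPCs, a log2 change of -1.17 (-1.72 to -0.62, adjusted p = 2.5e-04, Fisher's exact test). This rests on 83 and 38 reads of the 3p arms. For miR-26b the ratio was 90.2 in control and 71.5 in knockdown SPCs, a log2 change of -0.33 (-0.59 to -0.07, adjusted p = 0.029, Fisher's exact test). As background, the ratio of major to minor arm was computed for the 124 miRNAs with both arms listed under 1 name and at least 50 reads in each arm over both libraries. Its log2 change had a median of 0.08 and a middle range of -0.37 to 0.54, and 55 of the 124 were below 0. The change of miR-26b lay within this range, with 33 of the 124 below it, whereas 5 of the 124 were below that of miR-26a. The 3p arms of miR-26a are listed under separate names and were summed, so miR-26a is not among the 124. Its ratio is not of the same make as theirs. In the miR-103/miR-107 family the minor arms had 15 and 3 reads for miR-103 and 5 reads and 1 read for miR-107. The log2 changes of 0.47 (-1.32 to 2.26) and 0.51 (-2.59 to 3.61) did not pass the test (adjusted p = 1 for both, Fisher's exact test).

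The rare arms of miR-26a also separate its 2 loci. miR-26a-2-3p from Ctdsp2 had 72 reads to the 11 of miR-26a-1-3p from Ctdspl in the control, and 38 to 0 in the knockdown. miR-26a-1-3p made up 13.3% of these reads in the control (Wilson interval 7.56 to 22.2%) and 0% in the knockdown (0 to 9.18%), and the difference passed the test (adjusted p = 0.030, Fisher's exact test). Of the minor arms of miR-103, 13 of 15 reads in the control and 3 of 3 in the knockdown were of miR-103-2-5p from Pank2 (adjusted p = 1, Fisher's exact test). Of the minor-arm reads of miR-26a and miR-103, most in the control were thus listed under Mir26a-2 and Mir103-2, for miR-103 on 15 reads alone. The 2 minor arms of miR-103 differ at base 1 alone, so a read that lacks this base matches both loci. How such reads were assigned is not stated in the sources used here.

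**Figure D4:**
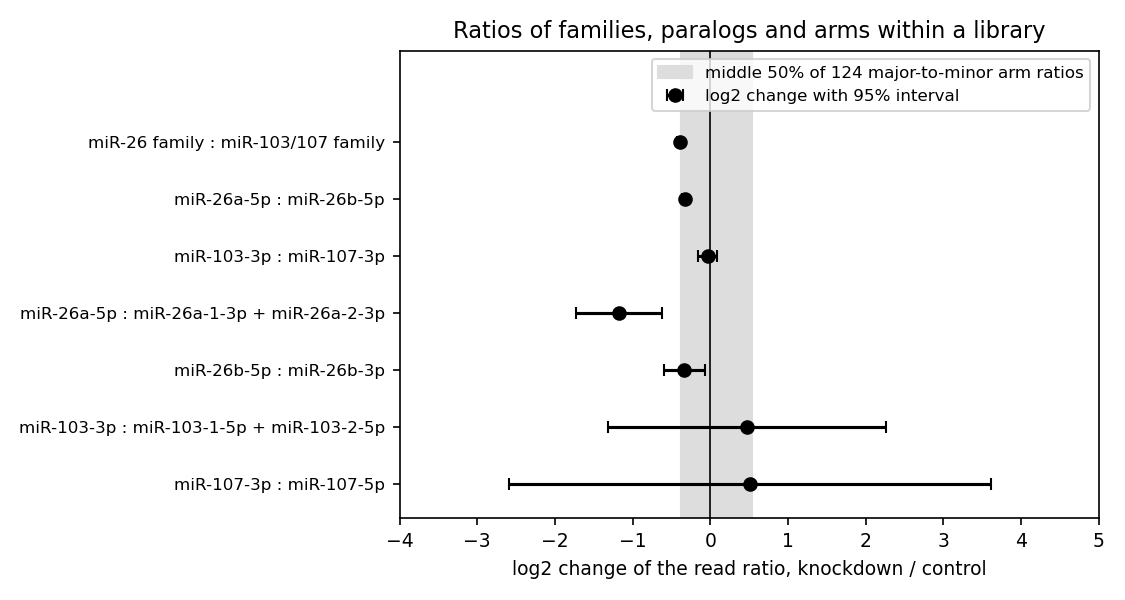
Log2 change from control to knockdown of read ratios taken within a library, with 95% intervals of the counting error; the grey band spans the middle of the changes of major-to-minor arm ratios over 124 miRNAs and serves as background for the arm ratios only. The ratios of miR-26 to miR-103/miR-107, of miR-26a-5p to miR-26b-5p and of the miR-26 arms lie below 0, and the interval of miR-103-3p to miR-107-3p spans 0.

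miR-103/miR-107 also belongs to a wider group of miRNAs with AGCAGC near the 5′ end, which includes miR-15, miR-16, miR-195, miR-497, miR-322 and miR-503 and is known for targets in the cell cycle. The bases 1 to 7 of miR-103-3p are the seed of 6 miRNAs of the tables, so that their seeds are offset by 1 base, as the sequences of 2 of them show.
miR-16-5p: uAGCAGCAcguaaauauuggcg
miR-322-5p: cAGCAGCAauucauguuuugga
Of the 9 relatives listed, 7 had a value and all 7 were above 1.5 TPM. By the exact binomial test 3 were lower, 1 was higher and 3 did not pass, where 21.4% of all miRNAs were lower and 10.7% higher. miR-16-5p, the most abundant, had 11586 TPM in control and 8240 in knockdown SPCs (log2 fold change -0.49), and miR-195a-5p (-0.86) and miR-497a-5p (-1.05) were lower over 1.5-fold. miR-322-5p was higher, with 810 and 1226 TPM and a log2 fold change of 0.60. The summed guides with the miR-103/miR-107 seed had a log2 ratio of -0.13, those with the offset seed of miR-16-5p -0.40 (-0.42 to -0.38) and those with the miR-26 seed -0.52 (-0.53 to -0.51).

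A hairpin was counted as intronic if it lay in a same-strand intron of a protein-coding gene and no exon of that gene overlapped it. By this rule Mir26a-2 was not counted, because of the shorter Ctdsp2 transcripts that start at its last base. Introns so defined held the hairpins of 482 other miRNAs of the 1089 that could be placed, and 235 of these were above 1.5 TPM. Among the 235, 44.3% were lower and 11.5% higher over 1.5-fold, and their median log2 fold change was -0.46. For all other placed miRNAs outside the 2 families, 362 above the minimum, the values were 40.6%, 18.0% and -0.29. These include any hairpins that lie in an intron but overlap an exon of another transcript of the host. Of the 6 members above the minimum, miR-103-3p, miR-107-3p, miR-26b-5p and the 2 rare arms of miR-26 had log2 fold changes above both medians, whereas that of miR-26a-5p was below them. The miRNAs most like miR-26a-5p, by distance in log2(TPM + 0.1) over the 2 libraries, were miR-465c-5p (distance 0.29, log2 fold change -0.89), miR-92a-3p (0.46, -0.44) and miR-143-3p (0.51, 0.13). Those most like miR-103-3p were miR-101a-3p (0.13, -0.01), miR-130a-3p (0.23, 0.04) and miR-181c-5p (0.24, -0.03).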

How the data were processed

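Small RNA-seq of shVector control and shMov10-832 knockdown SPCs was used, 1 library per group. The methods mention triplicate samples and do not say whether these were pooled. The RNA-seq and CLIP-seq samples of the series were not analysed here, so host gene transcripts and the depletion of Mov10 were not measured. The authors trimmed adaptors and filtered rRNA with Fastx 0.0.13.2, checked quality with KASAVA 1.8 and mapped reads without mismatch to miRBase 21 with CLC Genomics Workbench 5.5. For each mature miRNA the deposited tables hold a raw read count. They also hold a TPM value computed by the authors, which is reads per 1000000 of a library total that was recovered here as reads divided by TPM.

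Counts of the libraries were compared by two-sided exact conditional binomial tests given these totals (Benjamini-Hochberg, threshold 0.05), and ratios within libraries by Fisher's exact test with Woolf intervals. Intervals of log2 fold changes are Clopper-Pearson intervals of the reads, and reads carry no molecular identifiers. The 1.5-fold calls used TPM + 0.1 and over 1.5 TPM in the higher library. Members, lists and ratios were chosen with earlier results of these data known. Named miRNAs are all members, their listed relatives and the 3 nearest patterns to the leading member of each family. Gene models were those of GENCODE vM21, and hairpins were placed with RefSeq on GRCm38. Alternatives were 4 scalings (1 with the TMM factors of edgeR 4.0.16), 2 pseudocounts, other minima, a 2-fold threshold, guides only and equal weights. Python 3.11.15, scipy 1.17.1, numpy 2.4.6, pandas 2.3.3, matplotlib 3.10.9 and R 4.3.3 were used.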

Additional observations from a re-analysis of the deposited data

How the results depend on the processing

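No paired analysis was possible because a single library stands for each group. Division of both libraries by 1 common total compares reads directly and shifts the log2 fold changes of well-counted miRNAs by -1.72. Rare miRNAs shift by less, because 0.1 TPM is added, and miR-26a-1-3p stayed at -3.52. The common total gave 6 members lower and 0 higher over 1.5-fold, and 8 lower and 0 higher by the binomial test. All miRNAs then counted 561 lower and 10 higher over 1.5-fold, and 55.4% lower and 0.912% higher by the binomial test. miR-26a-2-3p turned to -0.90 and miR-26b-3p to -1.63. Scaling by the median ratio shifted the log2 fold changes of well-counted miRNAs by 0.25 and TMM by 0.22. The miR-103/miR-107 sum turned to 0.12 and 0.090 under these, miR-103-3p to 0.12 and 0.087, miR-107-3p to 0.16 and 0.12, and miR-26b-5p to 0.0022 under the median ratio. The binomial test then called 1 member lower under each, with 4 higher under the median ratio and 2 under TMM. Of all miRNAs it called 16.7% lower and 15.4% higher under the median ratio, and 17.1% and 14.5% under TMM. Over 1.5-fold, 191 miRNAs were lower and 144 higher under the median ratio, and 201 and 145 under TMM. With the deposited TPM these counts were 252 and 96. The members over 1.5-fold stayed at 0 lower and 1 higher under both scalings. These changes follow from the totals. Without a minimum, 2 members were lower and all miRNAs counted 561 lower and 186 higher. A minimum of 10 TPM left 157 lower and 53 higher, and a 2-fold threshold left 161 lower and 40 higher with 0 members higher. With equal weights the difference of the families turned from -0.39 to 0.12, since the rare miR-26 arms then count as much as the guides. Pseudocounts of 1 and 0.01 TPM, guides only and 0.5 read added to each ratio turned no direction. Depth limits the 4 members below 1.5 TPM, all minor arms.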
